A study of Haliotis discus hannai with 24 samples.

Results

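The cephalic tentacle of the head was compared with the epipodial tentacle of the foot in Haliotis discus hannai, the Pacific abalone, a grazing sea snail. All libraries labelled with either organ were taken, which gave 8 cephalic and 8 epipodial libraries, 16 of the 24 in the study, with 4 libraries per organ and side. Of the 19700 listed genes, 16215 had a count in these libraries, and the 7341 that passed a filter on low counts were tested. The remaining 8 libraries are from the eyestalk. They entered the filter and the estimate of the spread, and their levels are given beside those of the tentacles for the called genes. All groups were polyadenylated RNA of animals whose genotype label reads Aquaculture, with excision of an organ as the treatment label and the same batch value throughout. No age, sex or number of animals is given in the sources used here, so the p-values are about the spread among the libraries, part of which may be technical.

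Both organs are soft, extensible sensory appendages covered by an epithelium that holds sensory cells and carries nerve fibres. Cephalic tentacles sit beside the eyestalks and are supplied by the ganglia of the head, where they serve touch and chemical sensing. Epipodial tentacles project from the epipodium, the fringe around the foot, and are supplied by the nerve cords of the foot. The comparison sets apart organs of similar form at different sites of the body. In bulk tissue, fewer cells of a type and less RNA per cell cannot be told apart.

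The deposited tables give each gene by an identifier, and neither they nor any table used here pairs an identifier with a gene name. The gene lists for neurons, cilia, mucous glands, muscle, body axis genes and the like could therefore not be matched, and the labelled organs could not be checked against marker genes. At most 2 identifiers are named in each direction, and the genes are otherwise described as groups by level, fold change, detection and length. Among the epipodial libraries, the 4 whose tissue label says left carry a treatment label that names the cephalic tentacle, and their titles begin with the letter that stands for right in the other organs. The 4 labelled right have titles that begin with the letter for left. In rank correlation of gene levels over the 7341 genes, each of these 4 libraries matched the epipodial library labelled right of the same number at 0.910 to 0.949. Across organs, libraries of the same number had correlations of 0.602 to 0.859 in 16 pairs. Sides were weighted equally in the main comparison, so the side conflict does not enter it.

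The libraries of the organs differed in how many genes they detected. The total count was 473072 to 1939936 in the cephalic libraries and 1700095 to 2146464 in the epipodial libraries. Thinned to a common depth of 473072 counts, the cephalic libraries were expected to detect 6161 ± 2071 genes and the epipodial libraries 8035 ± 506 genes (SD, n = 8 each). The exact two-sided permutation test of this difference gave p = 0.0294 for 8 against 8 libraries, and p = 0.0286, the smallest possible, for means of both sides of a number, 4 against 4. As paired differences between organs within each number, the exact sign-flip p was 0.125, the smallest that 4 pairs allow. The cephalic libraries lay in separate ranges. Left replicates 1 and 2 and right replicates 3 and 4 detected 3913 to 4829 genes at the common depth and fewer than 6000 with all their counts, whereas the other 4 cephalic libraries detected 6076 to 9103. No epipodial library was below 6947. Each replicate number thus had 1 cephalic library of low and 1 of higher detection. The 4 cephalic libraries of higher detection averaged 7873 ± 1428 genes (SD, n = 4), 162 below the epipodial mean. Those libraries were picked by the number of genes they detected, so this value is a description and is not tested. Leaving out any 1 of the 4 cephalic libraries of low detection gave exact permutation p of 0.0581 to 0.0587.

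**Figure D1:**
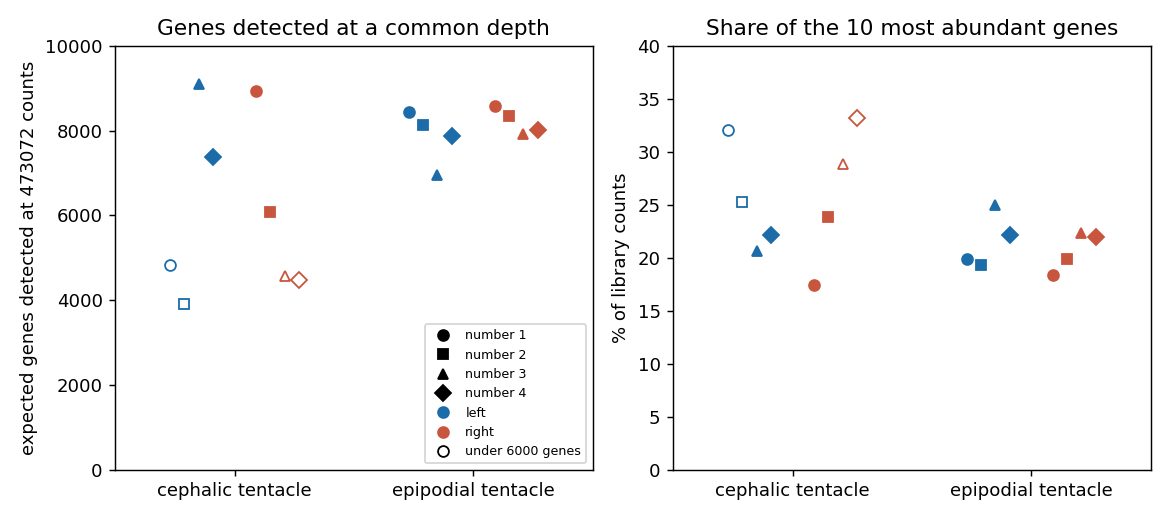
Expected genes detected at 473072 counts (left panel) and the share of a library's counts in its 10 most abundant genes (right panel), 1 point per library, cephalic left of epipodial. Open symbols are the 4 cephalic libraries with fewer than 6000 genes, which lie below every epipodial library in the left panel and above every epipodial library in the right panel.

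The 10 most abundant genes of a library held 25.4 ± 5.57% of its counts in the cephalic tentacle and 21.1 ± 2.14% in the epipodial tentacle (SD, n = 8 each). The exact permutation test was not passed (p = 0.0631). Means of both sides of a number gave an exact permutation p of 0.0286, and the paired differences within numbers an exact sign-flip p of 0.125, each the smallest that 4 numbers allow. It passed without left cephalic replicate 3 (exact p = 0.042), right cephalic replicate 1 (exact p = 0.0134) or left epipodial replicate 3 (exact p = 0.0435). In the 4 cephalic libraries of low detection the share was 25.3% to 33.2%, and in the other 4 it was 17.4% to 23.8%.

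Cephalic tentacles had 55 genes higher and 109 genes lower than epipodial tentacles, 0.749% and 1.48% of those tested and 2.23% together. Calls are by edgeR's quasi-likelihood test with a Benjamini-Hochberg adjusted p under 0.05. Genes called lower in the cephalic tentacle had larger folds at the median than those called higher. The median standard error of the lower genes was also larger, at 0.974 against 0.705 for the higher genes. Each standard error is the size of the log2 fold change over the root of its quasi-likelihood F. At a given F it therefore grows with the fold and is no separate measure. The sizes are not compared further, and the cause of the gap was not tested. The fitted log2 fold changes of the lower genes had a median of -4.30. For 18 of them no cephalic count was found, so that the fitted value depends on the prior count. With these 18 set to the bound that a floor of 3 counts over the 8 cephalic libraries gives, the median was -4.13, and 61 of 109 exceeded a log2 size of 4. Among the 91 with a cephalic count, log2 fold changes ran from -9.38 to -1.91, the largest sizes resting in part on few cephalic counts. The genes higher in the cephalic tentacle had a median of 3.08 and a range of 1.63 to 7.54, and 16 of 55 exceeded a log2 size of 4. Over all tested genes the median log2 fold change was -0.19, and the median size without sign was 0.61.

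The number of calls depended on how the libraries were joined. The main fit, which gave the 164 calls, left the replicate number out. Same-numbered libraries moved together around their group means, so fits with the number as a block, which pairs the organs, were run as alternatives. The sources used here do not say what a number stands for. A block for the number gave 88 edgeR calls higher and 166 lower in the cephalic tentacle, 3.46% of those tested, among them 163 of the 164. When the counts of both sides of a number were summed, so that 4 units stood against 4, edgeR called 15 higher and 30 lower without the block, 0.597% of 7541, and 41 higher and 79 lower with it, 1.59%. Of the 164, 43 were called on these sums without the block and 80 with it. The count of higher genes was 33 without left epipodial replicate 1, 35 without left cephalic replicate 1 and 36 without right epipodial replicate 2. On the deposited FPKM values (fragments per kilobase and per 1e6 reads), with no TMM factor, limma called 18 higher and 221 lower with a pseudocount of 1, 3.26% in all. With a pseudocount of 0.1 it called 16 higher and 147 lower, 2.22%. With voom weights limma called 35 higher and 172 lower, 2.82%. Over all genes the log2 fold change had a median of -0.82, -1.40 and -0.41 in these 3 fits. The FPKM fits differ from the edgeR fit in both test and scaling, while voom keeps the TMM scaling and differs in the test. The cause of the different split was not tested.

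**Figure D2:**
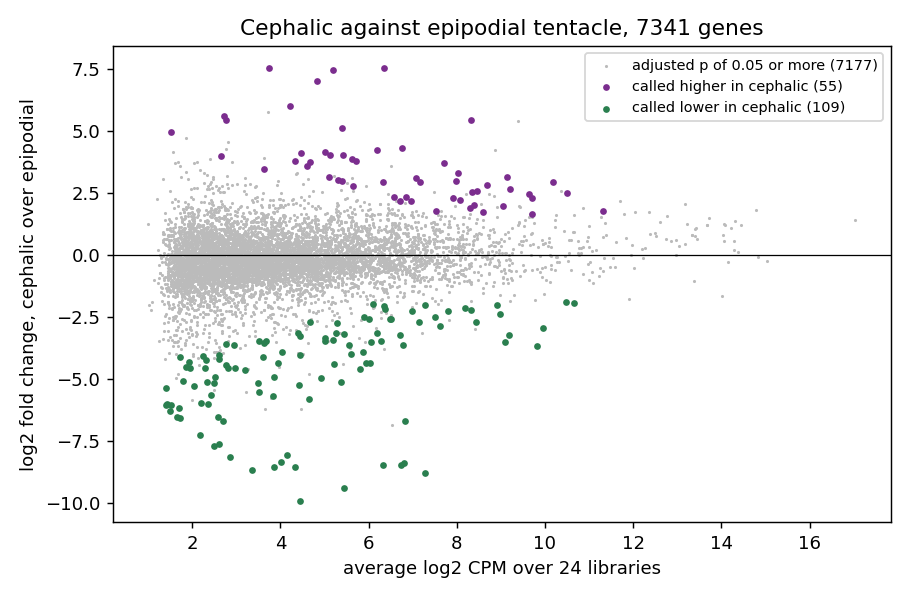
Log2 fold change, cephalic over epipodial, against the average log2 CPM over 24 libraries, 1 point per tested gene, on linear axes of log values. The 55 genes called higher lie mostly at mid and high levels, and the 109 called lower are found at all levels. Values are as fitted, also for the 18 lower genes with no cephalic count.

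Called genes were found at all levels of abundance. When tested genes were split by average level into 4 groups of 1835 or 1836 genes, the lowest group held 1 gene called higher and 25 called lower in the cephalic tentacle, 1.42% of it. The next group held 4 higher and 17 lower, and the one above it 10 higher and 20 lower. The group with the highest levels held 40 higher and 47 lower, 4.74% of it. The median standard error of the log2 fold change was 1.03 in the lowest group and 0.55 in the highest, so a given fold was resolved better in the highest.

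By level, the genes called higher had a median of 187 CPM in the cephalic tentacle, against 17.3 CPM in the epipodial tentacle, where CPM is the count per 1e6 reads after scaling by trimmed mean of M-values (TMM). Genes called lower had a median of 1.22 CPM in the cephalic tentacle, against 38.4 CPM in the epipodial tentacle. As a share of the raw counts of a library, the 55 genes called higher held 1.40% to 4.15% in the cephalic libraries and 0.537% to 0.993% in the epipodial libraries. The 109 genes called lower held 0.143% to 0.581% in the cephalic libraries and 1.99% to 4.09% in the epipodial libraries. These shares describe genes that were chosen by this contrast and add no support to it.

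The named genes are the most abundant of those called, called also with the block, and with no overlap between the 8 and 8 libraries. Such genes numbered 9 higher and 80 lower. Over all tested genes, 0.191% had every cephalic library above every epipodial library and 1.72% had the reverse. The SDs and adjusted p-values of the named genes take left and right of a number as separate units.

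HDSC00217CG00110, with a coding length of 501 bases, had a lowest, median and highest level of 123, 394 and 1941 CPM in the cephalic libraries and of 4.77, 13.8 and 33.8 CPM in the epipodial libraries. Every cephalic library was thus above every epipodial library, and the highest, right replicate 4, and the lowest, right replicate 3, both belonged to the cephalic libraries of low detection. In this gene the cephalic level averaged 735 ± 691 CPM and the epipodial level 17.3 ± 9.83 CPM (SD, n = 8 each). By edgeR the log2 fold change was 5.42 with an SE of 0.69 and an adjusted p of 1.09e-05. HDSC00217CG00110 was also the gene called higher on both sides. Its log2 fold change was 5.00 with only the cephalic libraries of higher detection and 5.69 with only those of low detection. Scaled to length and library total, it averaged 1107 FPKM in the cephalic and 41.7 FPKM in the epipodial tentacle.

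HDSC00045CG00030, with a coding length of 1590 bases, had 147, 256 and 935 CPM as lowest, median and highest cephalic level and 46.2, 78.7 and 122 CPM as the epipodial levels. Its cephalic and epipodial ranges came close but did not overlap, and the highest cephalic values were those of left replicate 1 at 935 CPM and right replicate 4 at 887 CPM, both of low detection. These 2 libraries had low TMM factors, 0.602 and 0.500, which raise their CPM. HDSC00045CG00030 averaged 419 ± 323 CPM in the cephalic libraries, against 85.4 ± 25.03 CPM in the epipodial libraries (SD, n = 8 each). Scaled to length and library total, it averaged 217 FPKM in the cephalic and 65.5 FPKM in the epipodial tentacle. With library totals alone its log2 fold change by edgeR was 1.73 and still called. In the main edgeR fit its log2 fold change was 2.29 with an SE of 0.48 and an adjusted p of 0.00679. With only the cephalic libraries of higher detection it was 1.55 and no longer called in the fit that keeps the eyestalk libraries, while in the 12 tentacle libraries of higher detection alone it was 1.54 and called. It was also not called when both sides of a number were summed, at 1.85, or 1.80 with the block, nor without replicate 1, at 1.81, or replicate 2, at 2.26.

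HDSC01085CG00040, with a coding length of 1110 bases, had 395, 538 and 1043 CPM as lowest, median and highest cephalic level and 1397, 1884 and 4876 CPM as the epipodial levels. In the epipodial tentacle number 3 stood apart on both sides, at 4876 CPM on the left and 4623 CPM on the right, and the other 6 libraries were at 1397 to 1959 CPM. HDSC01085CG00040 averaged 671 ± 254 CPM in the cephalic libraries, against 2518 ± 1389 CPM in the epipodial libraries (SD, n = 8 each). In edgeR its log2 fold change was -1.91, with an SE of 0.48 and an adjusted p of 0.0247, and the call was not firm. It was lost without left cephalic replicate 1 or 2, right cephalic replicate 3 or 4, or left or right epipodial replicate 3, with log2 fold changes of -1.89 to -1.67, and without any of the 4 replicate numbers, at -2.20 to -1.47. It was lost as well with only the cephalic libraries of higher detection, at -1.59, and when both sides of a number were summed, at -1.77, or -1.59 with the block.

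HDSC16768CG00010, with a coding length of 258 bases, had 86.4, 271 and 796 CPM as lowest, median and highest cephalic level and 852, 1852 and 5505 CPM as the epipodial levels. Averaged over sides, numbers 1 to 4 had 484, 402, 239 and 163 CPM in the cephalic and 2950, 4699, 1177 and 939 CPM in the epipodial tentacle. Numbers 1 and 2 thus had the higher averages in both organs. The cephalic average of number 1 rests on the right library at 796 CPM. The left library of number 1 had 171 CPM, below left replicates 3 and 4 at 177 and 239 CPM. Within every number the cephalic level of HDSC16768CG00010 was lower. It averaged 322 ± 225 CPM in the cephalic libraries, against 2442 ± 1705 CPM in the epipodial libraries (SD, n = 8 each). The log2 fold change by edgeR was -2.93, with an SE of 0.49 and an adjusted p of 0.000523. It was -2.82 with only the cephalic libraries of higher detection and -3.29 with only those of low detection, and when both sides of a number were summed without the block it was -2.75 and not called.

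**Figure D3:**
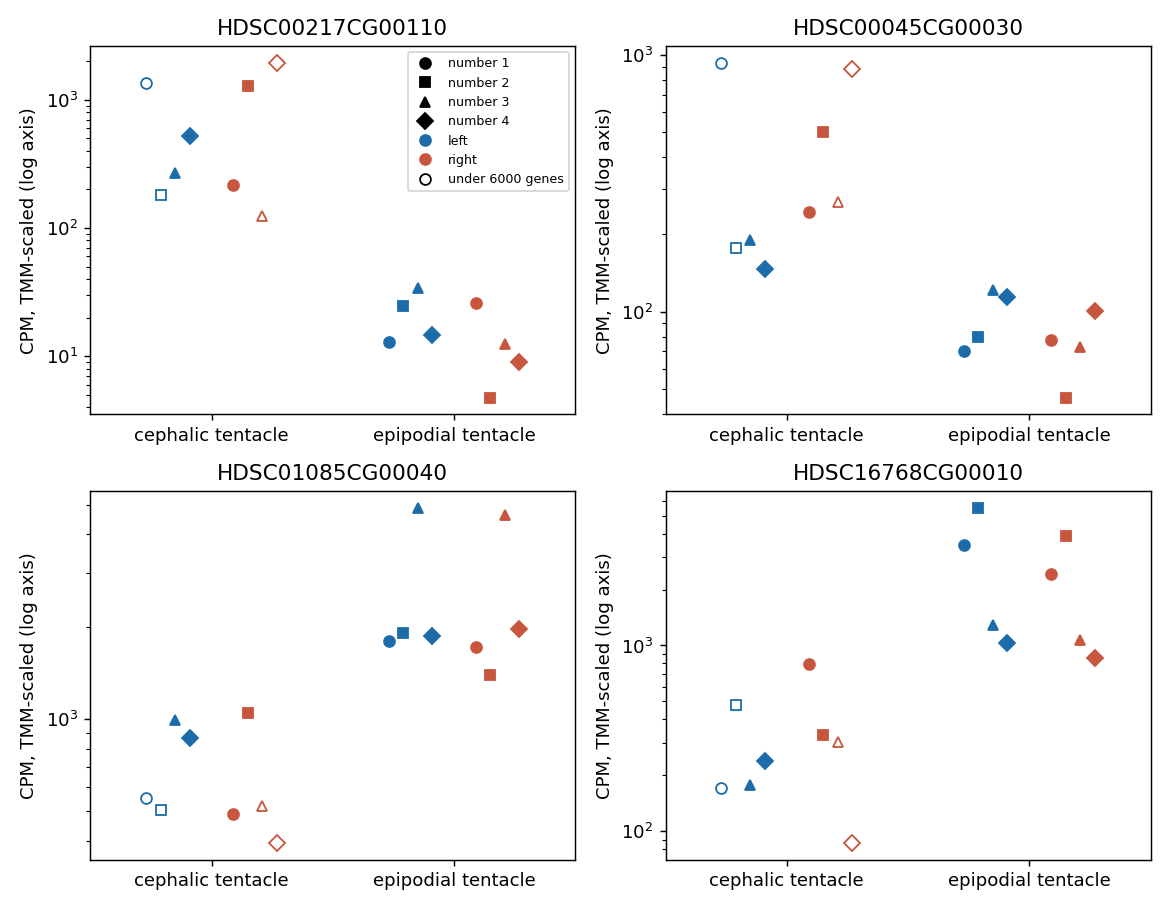
TMM-scaled CPM on log axes of the 4 named genes, 1 point per library, cephalic left of epipodial, with symbols for the replicate number, colours for the labelled side and open symbols for cephalic libraries with fewer than 6000 genes. In each panel the organs do not overlap, and HDSC01085CG00040 shows number 3 apart in the epipodial tentacle at 4876 and 4623 CPM.

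Much of the lower group was near the limit of detection in the cephalic tentacle. Of the 109 genes, 18 had 0 counts in all 8 cephalic libraries, and 30 had at most 3 counts over all 8, among 10527012 cephalic counts. In the epipodial tentacle, 104 of the 109 had a count in every one of the 8 libraries. The 18 genes had 49 to 1252 counts over the epipodial libraries. Against a floor of 3 counts over the 8 cephalic libraries, or 0.285 per 1e6 counts, they were at least 11.0-fold to at least 280-fold lower in the cephalic tentacle, with a median bound of 27.4. Among all tested genes, 23 had 0 counts in all 8 cephalic libraries and 47 had at most 3. Of the 55 genes called higher, none had 0 counts in all 8 epipodial libraries, and 3 had at most 3 counts there, against 2 and 10 of all tested genes. The filter on low counts sets part of this: of the genes counted in a single kind of tentacle, 21 seen only in the epipodial and 0 seen only in the cephalic tentacle passed it. A count in every cephalic library was found for 46 of the 55, or 83.6%, against 29.0% of all tested genes. A count in every epipodial library was found for 44 of the 55, or 80%, close to the 80.8% of all tested genes. The 55 were called for being higher in these cephalic libraries, which favours a count in each, so these shares are a description.

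Zeros followed the detection of the cephalic libraries. In the 4 cephalic libraries of low detection 61.5% to 75.2% of the 109 genes had 0 counts, against 29.4% to 45.0% in the other 4 cephalic libraries and 0% to 3.67% in the epipodial libraries. Over all tested genes these libraries lacked 35.6% to 50.6%, 4.20% to 18.7% and 3.87% to 8.05%. Cephalic libraries of higher detection therefore lacked a larger share of the 109 than of all tested genes, as did those of low detection. The 109 were chosen by this contrast, so the excess is a description. Of the 109, 55 had no count in any of the 4 cephalic libraries of low detection, and 37 of these 55 had a count in at least 1 of the other 4. The 55 genes called higher had 0 counts in 0% to 10.9% of cases in the cephalic libraries and 7.27% to 16.4% in the epipodial libraries.

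**Figure D4:**
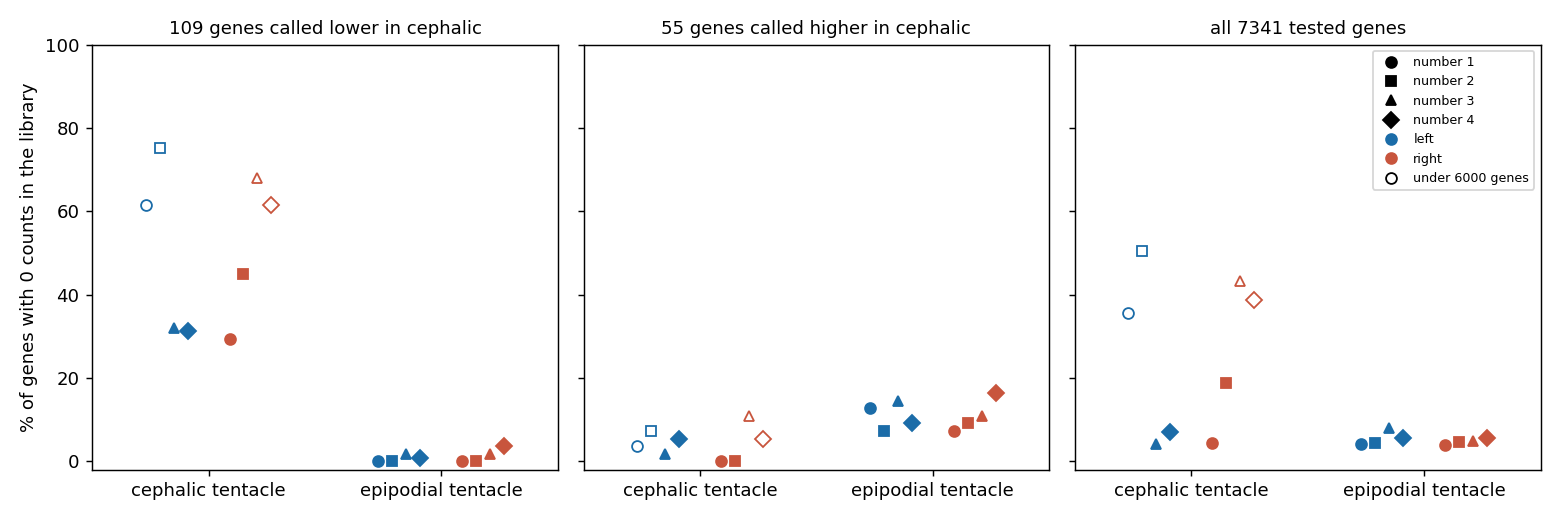
Share of genes with 0 counts in each library, in percent, for the 109 genes called lower, the 55 called higher and all 7341 tested genes, cephalic left of epipodial. Open symbols are cephalic libraries with fewer than 6000 genes. In the left panel all 8 cephalic libraries lie at 29.4% or above and all epipodial libraries at 3.67% or below.

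The comparison was repeated with either set of cephalic libraries, alternatives chosen after the data were seen. With only the 4 of higher detection, edgeR called 23 genes higher and 30 lower of 8529, 0.621% in all, and 44 of these 53 belonged to the 164. In a fit without the eyestalk libraries, the same 12 tentacle libraries gave 82 higher and 123 lower, 2.67% of 7684, and 107 of these belonged to the 164. With only the 4 of low detection, 113 genes were called higher and 351 lower of 8287, 5.6% in all, and 116 of them belonged to the 164. In this last fit the median over all tested genes was itself -1.46, against -0.04 with the libraries of higher detection. The 109 genes had a median log2 fold change of -3.88 with the libraries of higher detection and of -6.11 with those of low detection, where 55 of them had no cephalic count. With genes at 0 set to the bound of 3 counts over each set of cephalic libraries, the medians were -3.73 and -3.91. The bound is a least size that depends on the counts read in each set. These medians therefore cannot show whether the sets differ, and the source of the gap in fitted values was not tested. The 55 had a median of 2.22 with the libraries of higher detection and, for the 54 tested there, of 3.02 with those of low detection. Both fits use the same epipodial libraries.

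The organ difference was then taken on each side alone. Between the left organs edgeR called 2 genes higher and 17 lower in the cephalic tentacle, 0.259% of 7341, and between the right organs 4 higher and 9 lower, 0.177%. A block for the replicate number gave 5 higher and 32 lower on the left, 0.504%, and 14 higher and 25 lower on the right, 0.531%. The sides had 10 calls in common, 52.6% of the left and 76.9% of the right calls, of which 9 were lower in the cephalic tentacle and 1 was higher. Left calls numbered 9 without left cephalic replicate 1, 11 without left cephalic replicate 3, and 12 without left cephalic replicate 4 or left epipodial replicate 1 or 2. Right calls numbered 7 without right cephalic replicate 2 and 8 without right epipodial replicate 3 or 4. The epipodial libraries whose treatment label names the cephalic tentacle are all in the left comparison, and the conflict between title and labelled side touches both comparisons.

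For the 109 genes lower with both sides averaged, the median log2 fold change was -4.22 on the left and -4.42 on the right, or -3.70 and -3.62 with genes at 0 set to the bound of 3 counts over the cephalic libraries of the side. For the 55 higher genes it was 2.89 on the left and 3.31 on the right. All 164 had the same sign on both sides, as did 66.0% of all tested genes, but these 164 were chosen by the average of the sides. The difference of the organ effect between the sides was tested directly. It gave 0 calls by edgeR, where 50 genes had an unadjusted p below 0.05. DESeq2 gave 1 call, 0.0136%, and limma with voom weights gave 0.

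**Figure D5:**
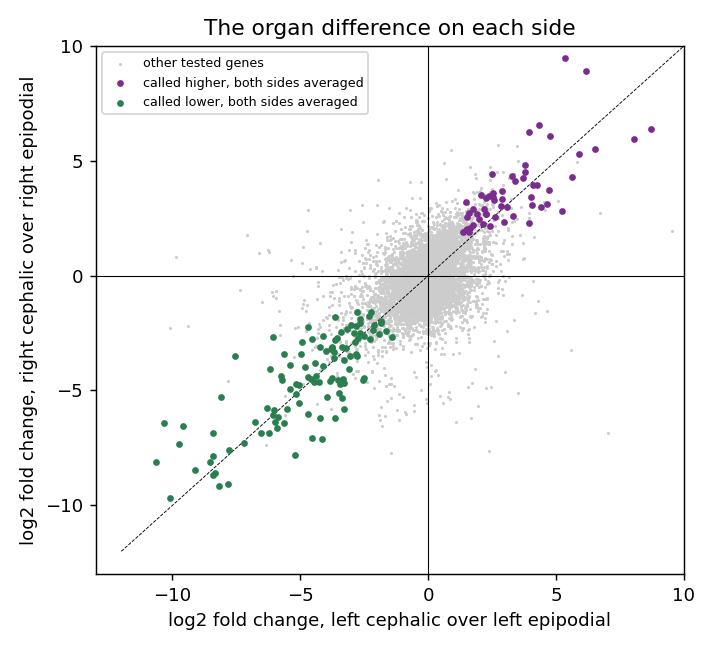
Log2 fold change of the right organs against that of the left organs, cephalic over epipodial, 1 point per tested gene, with the dashed line marking equal values. The 55 genes called higher and the 109 called lower with both sides averaged lie in the upper right and lower left.

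The difference was also described per replicate number, averaging the sides on the log2(CPM + 1) scale. In numbers 1 to 4 the 109 genes had median differences of -2.97, -3.72, -3.03 and -2.78, and all tested genes had -0.41, -0.83, -0.40 and -0.42. The 55 higher genes had 2.74, 2.65, 1.26 and 1.98. Number 3 therefore had the smallest median among the higher genes and number 2 the largest size among the lower ones. Of the 109, 105 were lower in all 4 numbers, and of the 55, 51 were higher in all 4. Among all tested genes 2068 were lower and 367 higher in all 4 numbers. The 109 and the 55 were chosen by the contrast of these same libraries, so their agreement across numbers is a description.

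Cephalic libraries varied more among themselves than epipodial libraries. The common biological coefficient of variation, edgeR's measure of spread beyond counting error, was 1.20 over the 8 cephalic and 0.690 over the 8 epipodial libraries. Once a block took up the replicate number, it was 1.19 in the cephalic and 0.248 in the epipodial tentacle. It was 0.855 in the 4 cephalic libraries of higher detection and 1.32 in the 4 of low detection. For 91.1% of tested genes the SD of log2(CPM + 1) was larger over the cephalic than over the epipodial libraries, and for 70.7% when only the cephalic libraries of higher detection were used. Left and right epipodial libraries of the same number had rank correlations of 0.910 to 0.949, against 0.730 to 0.817 between numbers. Left and right cephalic libraries of the same number had 0.577 to 0.716, but every such pair joins a library of low with a library of higher detection. Among the 4 cephalic libraries of higher detection the median was 0.731 over 6 pairs, all of different numbers. Between these and the epipodial libraries it was 0.713 over the 24 pairs of different numbers and 0.826 over the 8 pairs of the same number. Depth and detection differ between the libraries behind each of these correlations.

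This spread limits what can be said of genes that were not called. The 95% interval of the log2 fold change lay within 2-fold either way, a log2 size of 1, for 123 genes, or 1.68% of those tested. It lay within 4-fold, a log2 size of 2, for 2183 genes, or 29.7%, and within 8-fold, a log2 size of 3, for 5447 genes, or 74.2%. Among the genes with the highest levels 60.1% of intervals lay within 4-fold, and among those with the lowest 3.98%. For most genes that were not called, the intervals thus leave room for a difference of more than 4-fold in at least 1 direction.

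The most abundant transcripts were largely shared by the organs. Ranked by mean FPKM, which allows for coding length, 8 of the 10 most abundant genes, 44 of the 50 and 79 of the 100 were the same in both tentacles. None of the 79 shared among the first 100 was called by edgeR, and 3 of the 166 shared among the first 200 were. Genes in the top list of both organs are selected for similar levels, so these low counts are a description. The log2 fold changes of the 79 ran from -3.00 to 2.16 with a median size of 0.61, and for 51 of them the interval lay within 4-fold. Of the 100 most abundant cephalic genes 5 were called, and of the 100 most abundant epipodial genes 4, close to the 4.74% called in the group of tested genes with the highest levels. Each organ's own 100 held 59.7% of the cephalic and 57.7% of the epipodial counts.

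For the called genes, the eyestalk, the other head organ, lay between the tentacles in median TMM-scaled CPM, but not on every scale. Median levels of the 55 higher genes were 187 CPM for the cephalic tentacle, 98.0 CPM for the eyestalk and 17.3 CPM for the epipodial tentacle. Their median log2 fold change was 1.87 for cephalic over eyestalk and 1.55 for eyestalk over epipodial. For the 109 lower genes they were 1.22 CPM for the cephalic tentacle, 9.21 CPM for the eyestalk and 38.4 CPM for the epipodial tentacle, with median log2 fold changes of -1.66 for cephalic over eyestalk and -2.64 for eyestalk over epipodial. The cephalic over eyestalk median is of fitted values and includes the 18 genes with no cephalic count. As a share of raw counts, the 55 higher genes held a median of 2.58% in the cephalic tentacle, 0.664% in the eyestalk and 0.672% in the epipodial tentacle. There the eyestalk was about level with the epipodial tentacle. The 109 lower genes held 0.349% in the cephalic tentacle, 0.985% in the eyestalk and 2.85% in the epipodial tentacle. In right eyestalk replicates 1 and 2 a single gene held 24.1% and 70.8% of the counts, which lowers the raw share of all other genes in them. Over all tested genes the median log2 fold changes were 0.01 for cephalic over eyestalk and -0.18 for eyestalk over epipodial. The called genes were chosen for a difference between the tentacles, which by itself tends to place another organ between them, and all 3 comparisons share libraries. The values are therefore set side by side as a description. The averages of single genes could depart from the order of the groups. HDSC16768CG00010 averaged 322 CPM for the cephalic tentacle, 217 CPM for the eyestalk and 2442 CPM for the epipodial tentacle. Its cephalic over eyestalk log2 fold change of 0.60 was not called by edgeR (adjusted p = 0.734). HDSC00217CG00110 averaged 735 CPM for the cephalic tentacle, 212 CPM for the eyestalk and 17.3 CPM for the epipodial tentacle. Its eyestalk libraries ran from 18.2 to 450 CPM, and the lowest lay within the epipodial range of 4.77 to 33.8 CPM. By edgeR this gene was called higher in the eyestalk than in the epipodial tentacle (adjusted p = 0.000704). Between cephalic tentacle and eyestalk it was not called (edgeR adjusted p = 0.085).

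Coding lengths, recovered from the ratio of count to FPKM, had a median of 711 bases in the 55 higher genes, 864 in the 109 lower genes and 744 in all tested genes. The lower and upper quartiles were 567 and 1233 bases for the higher genes, 471 and 1218 bases for the lower genes and 447 and 1245 bases for all tested genes.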

How the data were processed

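Members, gene lists and tests were chosen with earlier results of these data known. Per the labels' protocols, TRIzol served for extraction and a VAHTS Universal V6 kit for the libraries. Tools named in the submitters' processing notes are fastp, HISAT2 and HTSeq, with no versions. The build, the annotation and any strand setting were not given in the sources used here, so overlapping genes and near-identical copies are uncertain. The authors deposited raw read counts per gene with no normalization, and FPKM values that scale the same counts by gene length and library total. Recovered lengths were whole within 0.001 for 100% of tested genes and multiples of 3 for 99.5%, so they are coding lengths.

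Tests on counts used edgeR 4.0.16 (R 4.3.3), with filterByExpr over 6 groups, TMM factors (0.500 to 1.71 in cephalic and 0.884 to 1.53 in epipodial libraries) and robust quasi-likelihood fits of 6 group means to 24 libraries, with 18 residual degrees of freedom. The contrast was the mean of left and right cephalic minus the mean of left and right epipodial. Adjustment was by Benjamini-Hochberg over all tested genes at 0.05. Standard errors and 95% intervals follow from the quasi-likelihood F. Fits with limma 3.58.1 and DESeq2 1.42.0, other scalings, filters and left-out libraries were alternatives. Single values per library were compared by exact permutation tests, two-sided. Thinning used the expected number of genes without replacement. Floors allow for counting error alone, because the reads carry no molecular identifiers and may be copies of 1 molecule.

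Named genes are the 2 per direction with the highest mean CPM in the organ where they are higher, among genes called with and without the block whose libraries did not overlap. Same-numbered cephalic and epipodial libraries, averaged over sides, moved together around their group means (correlations of 0.51, 0.43, 0.36 and 0.55 for numbers 1 to 4, all over the bound of 0.1). The numbers were therefore treated as pairs. The sources used here do not say that a number is an animal. No identifier could be matched to a gene name, so the planned gene lists have no values.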

Additional observations from a re-analysis of the deposited data

Results flagged for a closer look

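Of 12 sets of 8 libraries checked for a library far from the rest, covering detection, the share of the 10 most abundant genes and the 4 named genes in each organ, 1 stood out. Left epipodial replicate 3 was expected to detect 6947 genes at the common depth, while the other epipodial libraries ranged from 7880 to 8580. Its gap to the nearest library was 0.571 of the range, above the 95% critical value of Dixon's test for 8 libraries. Chance alone gives about 1 such library in 20 sets.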

How the results depend on the processing

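The 164 calls (55 higher, 109 lower in the cephalic tentacle), 19 calls on the left, 13 on the right and 0 for the difference between sides changed with the fit as follows, and the cause was not tested. With library totals alone there were 114 calls (27 higher, 87 lower), and the left gave 8. With no filter on low counts there were 324 calls (128 higher, 196 lower), 58 left, 50 right and 2 for the difference. With the 16 tentacle libraries only there were 240 (87 higher, 153 lower), 37 left and 22 right. The replicate block gave 254 (88 higher, 166 lower), 37 left and 39 right, and with the 16 libraries 309 (102 higher, 207 lower), 64 left and 45 right. Summing both sides of a number gave 45 (15 higher, 30 lower), from fewer units. DESeq2 gave 310 (133 higher, 177 lower), 75 left, 78 right and 1 for the difference. Voom gave 35 higher, 172 lower, 42 left and 33 right. FPKM values gave 18 higher, 221 lower, 31 left and 54 right with a pseudocount of 1, and 16 higher and 34 right with 0.1. A fit left out 8 libraries, 4 cephalic and 4 eyestalk, that detected few genes or had a dominating gene. It gave 206 (80 higher, 126 lower), 38 left and 47 right. Without the 4 cephalic libraries under 6000 genes there were 53 (23 higher, 30 lower) and 5 right, and in the 12 tentacle libraries alone 31 left and 54 right. Without the other 4 cephalic libraries there were 464 (113 higher, 351 lower).

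Leaving out 1 library or 1 number gave 60 to 184 calls, 18 to 72 higher, 42 to 112 lower, 5 to 21 left, 4 to 17 right and 0 for the difference, with the lowest counts where a whole number was left out. The difference in genes detected was -2294 to -1553 with 1 library left out, and -162 without the 4 cephalic libraries of low detection, which were picked by this same quantity. As paired differences of replicate numbers, -1874 genes gave an exact sign-flip p of 0.125, the smallest that 4 pairs allow. The difference in the share of the 10 most abundant genes was 3.20 to 5.46 percentage points with 1 library left out. It was 4.31 in means of both sides (exact permutation p = 0.0286 unpaired and exact sign-flip p = 0.125 paired, each the smallest possible), and -0.109 without the 4 libraries of low detection (21.0% cephalic, 21.1% epipodial). No named gene changed its sign in any of these fits. Cephalic libraries of low depth or of low detection, the latter also seen at the common depth, limit what can be said of low genes.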

Other observations

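Genes seen in a single kind of tentacle were many but held few counts. Counts in at least 1 cephalic library and in no epipodial library were found for 1243 genes, 984 of them in a single library, and these held 0.0351% of cephalic counts. The reverse held for 2132 genes, 1296 of them in a single library, with 0.0909% of epipodial counts. In at least 4 libraries of their organ there were 14 such genes in the cephalic and 183 in the epipodial tentacle, and in all 8 libraries 0 and 16. The cephalic libraries held 10527012 and the epipodial libraries 15681049 counts, so the chance of seeing a rare transcript differed between the organs. Both organs detected 12840 genes.

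Some called genes share the part of the identifier before the letters CG. The sources used here do not say what that part stands for, and near-identical copies could share reads. The 109 genes called lower in the cephalic tentacle carried 101 such parts, 7 of which were found in 2 or 3 of them. Of the other tested genes met by pairing each of the 109 with those of the same identifier part, 14.1% were also called lower, beside 1.48% of all tested genes. For the 55 called higher it was 4.26%, from 2 identifier parts, beside 0.749%. These counts are descriptions, with no test.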
